A study of Mus musculus with 18 samples.

Results

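Single-nucleus RNA sequencing was used to read 10 genes of purinergic signaling in hippocampus (Hip) and in prefrontal cortex (PFC) of mice that differed in their gut microbiota. The 10 genes were taken by symbol from the 30905 genes of the count tables, by a rule that uses no measured value. Earlier results of these data were known when the genes were chosen. They are the ectonucleotidases Entpd1, Entpd2 and Nt5e, the nucleotide receptors P2ry12, P2ry13 and P2rx7, the adenosine receptors Adora1 and Adora2a, the adenosine kinase Adk and the nucleoside transporter Slc29a1. A further 53 genes of nucleotide release, hydrolysis, reception and nucleoside handling were kept as a pathway list.

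ATP that leaves a cell acts on P2X channels and on G protein-coupled P2Y receptors, and surface enzymes then remove its phosphates one after another until adenosine remains. Adenosine acts on receptors of its own, crosses membranes through nucleoside transporters and is returned to AMP by adenosine kinase inside the cell. In brain this chain is known for guiding microglial processes toward released nucleotides, which P2ry12 senses, and for the adenosine A1 receptor's inhibition of transmitter release at excitatory synapses.

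The 9 mice were Kun Ming animals harvested at 8 weeks of age, with 3 in each of 3 groups, and each gave 1 Hip and 1 PFC library. Germ-free (GF) mice 5, 6 and 7 had been derived from the specific pathogen-free (SPF) stock and lived in gnotobiotic isolators. SPF mice 30, 31 and 32 carried a microbiota and were housed apart from the isolators. Colonized germ-free (CGF) mice 17, 18 and 19 were GF animals that had shared housing with SPF mice for 4 weeks before harvest, so the groups differ in housing as well as in microbes. Values below follow that order of mice within each group.

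Of 72226 Hip and 67698 PFC barcodes, 63197 and 57933 were assigned to a cell type by marker genes, none of which is 1 of the 10 genes. Hip held 39582 excitatory neurons, 4119 interneurons, 6576 astrocytes, 6245 oligodendrocytes, 1926 oligodendrocyte precursor cells (OPC), 2009 microglia and 928 endothelial nuclei, and PFC held 37717, 6032, 5377, 2882, 1727, 1790 and 1181. Unique molecular identifiers (UMIs), each standing for 1 captured RNA molecule, were summed per library and type, and levels are given as counts per 1000000 UMIs of that sum (CPM). In Hip the libraries held 49067853–56240654 UMIs in the GF, 55558458–63217083 in the SPF and 54526815–62313617 in the CGF mice. In PFC the GF libraries held 59126586–71463928 UMIs, against 20336250–26949210 in SPF and 22213863–26151503 in CGF mice, so in that region GF status and sequencing depth cannot be told apart. The median per barcode also separated GF from SPF mice in Hip, in the other direction, at 4593–5809.5 against 6132–7054 UMIs. Any pair of libraries shared 6–29 barcodes, at most 0.362% of a library. Each marker list below holds the gate markers of a type and further markers held out of the gate. Gated types also held markers of other types, up to 8293 CPM for the interneuron list in Hip OPC. The 8 held-out microglial markers alone summed to 2374 CPM in Hip microglia and 15.9 CPM in the other gated nuclei. In PFC they summed to 2679 CPM in microglia and to 1393 CPM in the 59 border macrophage nuclei. The held-out border macrophage markers summed to 2288 CPM in those 59 nuclei.

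The ectonucleotidases differed most in where they were read (heat map of levels by cell type). Entpd1, which encodes CD39 and removes phosphates from ATP and ADP, was highest in microglia, at 575 ± 121 CPM (mean ± SD, n = 9 libraries) in Hip and 475 ± 227 in PFC. Border macrophages followed at 288 ± 218 and 358 ± 209.6 CPM, with ranges that overlapped those of microglia, on 37 and 29 UMIs only. Those of PFC also held the microglial markers given above, whose part in this level was not tested. Endothelial nuclei came next at 165 ± 60.6 and 164 ± 64.1 CPM, and their lowest library lay above every library of the type below them in both regions. Astrocytes had 65.7 ± 7.10 and 38.2 ± 10.8 CPM and OPC 50.1 ± 11.01 and 44.3 ± 11.4. Entpd2, which encodes an ecto-ATPase, had 15 UMIs in Hip astrocytes and 11 in PFC astrocytes, or 0.903 ± 1.11 and 1.14 ± 1.15 CPM, and at most 4 UMIs in any other type, so no group difference was detectable at this depth. Nt5e, which encodes CD73 and turns AMP into adenosine, averaged 30.04 ± 36.2 CPM in Hip and 50.6 ± 24.3 in PFC fibroblasts, on 33 and 74 UMIs. The ranges of those fibroblasts overlapped the ranges of the types next in order.

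**Figure D1:**
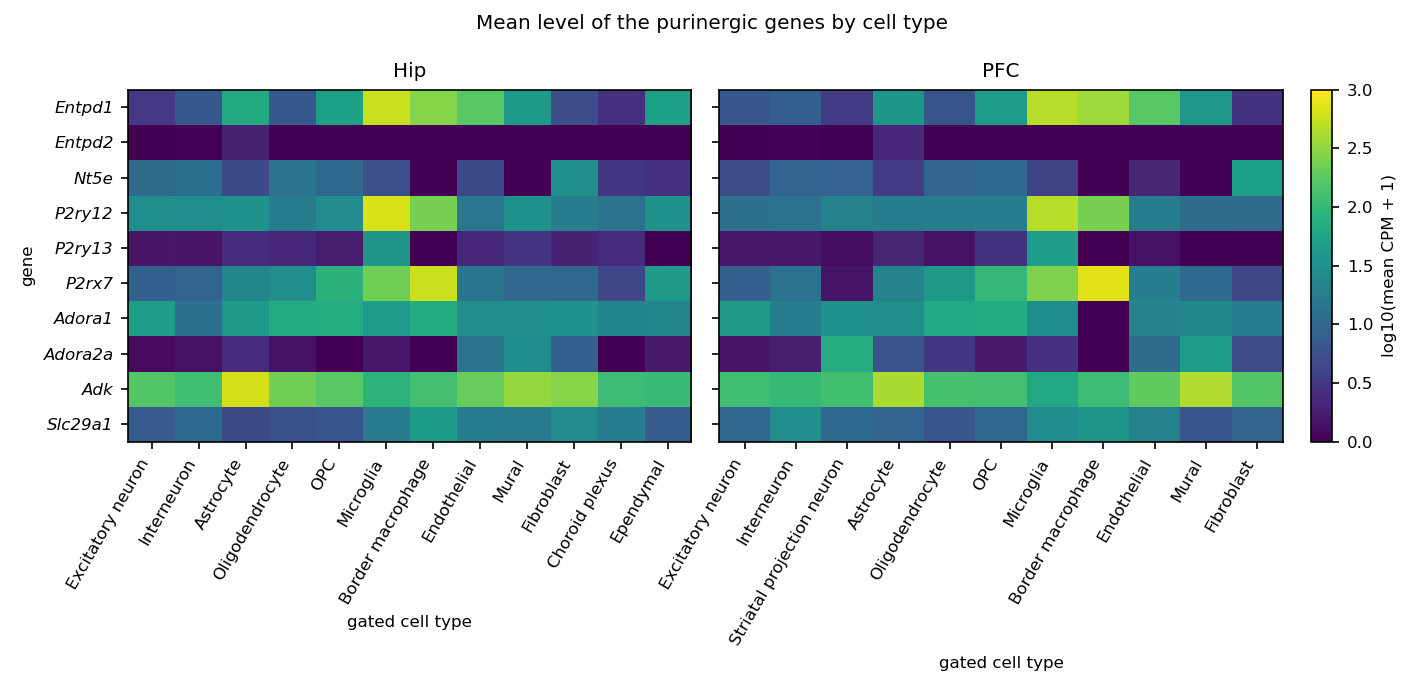
Heat map of the mean level of the 10 genes over libraries in each cell type of Hip and PFC, as log10 of CPM + 1, with genes in rows and cell types in columns. P2ry12, P2ry13 and Entpd1 were highest in microglia in both regions, P2rx7 in border macrophages, and Entpd2 stayed near 0 throughout.

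The nucleotide receptors were most abundant in the brain's macrophages. P2ry12, the ADP receptor used as a marker of homeostatic microglia, stood at 649 ± 159 CPM in Hip and 470.0 ± 96.6 in PFC microglia. Border macrophages had 244 ± 176 and 243 ± 219 CPM, on 34 and 20 UMIs, and no other type of Hip averaged above 34.0 CPM. The part of the microglial markers held by PFC border macrophages in their P2ry12 level was not tested. P2ry13, a second ADP receptor, averaged 35.4 ± 16.3 and 46.03 ± 22.6 CPM in microglia and under 2 CPM in every other type. In PFC its lowest microglial library, SPF mouse 32 at 6.52 CPM, lay just above the highest library of the next type. That was OPC of SPF mouse 31 at 6.16 CPM. PFC OPC held 4 UMIs of P2ry13 in all, so this separation rests on very few counts. P2rx7, an ATP-gated cation channel, was highest in border macrophages, at 574 ± 205 CPM in Hip on 75 UMIs and 740.1 ± 581 in PFC on 56 UMIs. Microglia followed at 224 ± 44.4 and 261 ± 65.3 CPM and OPC at 83.01 ± 12.1 and 97.3 ± 25.4, and microglia and OPC did not overlap in either region.

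P2ry12 and P2ry13 are neighbours. On GRCm38, P2ry12 spans chromosome 3 from 59216272 to 59262871 and P2ry13 from 59207892 to 59210882, both on the minus strand. Both lie wholly inside Med12l (59005825 to 59318682, plus strand), as does P2ry14, a receptor for UDP-sugars. The windows of 250 bases before to 50 bases after the annotated starts are shown because these neighbours share both their host gene and their highest cell type. They were taken from RefSeq (GRCm38.p6), are written 5′ to 3′ on the minus strand, and carry in capitals the letters AGGAAG, a purine-rich run of the kind that ETS factors bind. P2ry12 (chr3:59262936-59263235) and P2ry13 (chr3:59210833-59211132) read as follows.
P2ry12: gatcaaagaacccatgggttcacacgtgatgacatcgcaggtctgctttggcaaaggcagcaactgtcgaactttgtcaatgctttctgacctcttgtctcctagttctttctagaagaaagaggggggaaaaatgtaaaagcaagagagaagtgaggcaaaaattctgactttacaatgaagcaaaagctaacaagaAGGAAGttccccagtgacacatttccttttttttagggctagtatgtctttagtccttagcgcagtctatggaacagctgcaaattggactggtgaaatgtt
P2ry13: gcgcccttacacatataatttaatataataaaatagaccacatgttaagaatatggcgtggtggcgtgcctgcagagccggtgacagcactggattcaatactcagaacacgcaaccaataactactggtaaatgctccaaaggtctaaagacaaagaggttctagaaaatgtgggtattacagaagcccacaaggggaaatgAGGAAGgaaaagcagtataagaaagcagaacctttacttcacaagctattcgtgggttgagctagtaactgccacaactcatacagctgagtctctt
AGGAAG or its reverse complement CTTCCT, searched on both strands after the values had been seen, was found 1 time in each window, starting 52 and 47 bases before the start. Positions count from the RefSeq start, which for P2ry12 (59262985) lies 114 bases beyond the end of the gene as given above from GENCODE, and for P2ry13 equals it. AGGAAG or CTTCCT was present in at least 1 window of 7 of the 9 members that have such a window. It was present in 11613 of 32851 windows of the annotation (35.4%). The first count is by gene and the second by window, so these shares cannot be compared.

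The remaining genes lie on other chromosomes of GRCm38. Entpd1 is on chromosome 19 (40612366 to 40741602, plus), Entpd2 on 2 (25395874 to 25401321, plus), Nt5e on 9 (88327197 to 88372092, plus) and P2rx7 on 5 (122643911 to 122691432, plus). Adora1 is on chromosome 1 (134199223 to 134235431, minus), Adora2a on 10 (75316877 to 75334784, plus), Slc29a1 on 17 (45585200 to 45599606, minus) and Adk on 14 (21052574 to 21448569, plus), where it covers 395996 bases. Nt5e overlaps no other annotated gene, whereas Adora1 shares 2010 bases with the end of Mybph on the opposite strand.

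The adenosine receptors were read in different cells. Adora1, the inhibitory A1 receptor, averaged 71.4 ± 17.9 CPM in Hip OPC, 69.8 ± 18.3 in oligodendrocytes and 46.9 ± 5.97 in excitatory neurons, with overlapping ranges at each step, and border macrophages held 7 UMIs. PFC held the same order, at 70.02 ± 21.00, 63.02 ± 14.02 and 40.3 ± 4.37 CPM. Adora2a, the stimulatory adenosine receptor that is abundant in striatal neurons, averaged 71.7 ± 76.2 CPM over 7 PFC libraries in 300 nuclei gated as striatal projection neurons. Of these nuclei, 124 came from SPF mouse 30, 84 from GF mouse 7 and 80 from CGF mouse 19, with 198.0, 121.4 and 101.7 CPM, and the other 4 libraries held 2–4 nuclei each. These nuclei thus came mainly from 3 of the 9 PFC libraries, 1 per group. Mural nuclei had 27.9 ± 39.5 and 43.2 ± 32.3 CPM of Adora2a on 14 and 20 UMIs, and excitatory neurons 0.208 ± 0.0810 and 0.421 ± 0.249.

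Adk and Slc29a1 act on adenosine itself. Adk, which phosphorylates adenosine and is known as an astrocytic enzyme in adult brain, was highest in Hip astrocytes at 640.3 ± 102 CPM. In PFC it was near the same level in mural nuclei (433 ± 127) and astrocytes (411 ± 161), whose ranges overlapped. Slc29a1, the equilibrative transporter ENT1, was read at 28.8 ± 11.1 CPM in PFC interneurons, 9.54 ± 2.51 in Hip interneurons and 17.4 ± 10.4 and 20.1 ± 7.12 in endothelial nuclei of Hip and PFC. Hip fibroblasts had 27.3 ± 21.3 CPM and PFC microglia 27.4 ± 19.6. Its means in border macrophages, 42.3 ± 86.1 and 34.5 ± 60.8, rested on 3 UMIs in each region.

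Classes of neurons differed for several of these genes (levels by neuron class). In Hip, 18930 of 39582 excitatory neurons and 1765 of 4119 interneurons were placed in a class by markers, and in PFC 22068 of 37717 and 2902 of 6032. P2rx7 was read at 34.3, 30.9 and 33.5 CPM in GF mice, 27.3, 40.2 and 36.3 in SPF mice and 34.8, 26.7 and 24.6 in CGF mice in CA3 pyramidal neurons. All 9 of these values lay above every library of the next class, interneurons with Lamp5 at 14.99 ± 6.69 CPM, and above CA1 (6.25 ± 1.75), dentate granule cells (1.57 ± 0.449) and CA2, where 4 UMIs were counted. In PFC the highest means were 20.7 ± 6.98 CPM in Lamp5 and 14.1 ± 5.28 in Pvalb interneurons and 13.7 ± 3.62 in Rorb neurons of the middle layers, and these ranges overlapped.

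Adora1 followed a different pattern among neurons. CA2 and CA3 averaged 68.2 ± 20.1 and 67.02 ± 13.6 CPM, and CA3 lay wholly above CA1 (43.1 ± 5.85). Dentate granule cells (38.6 ± 5.82) lay wholly above Sst interneurons (12.6 ± 5.85). In PFC the level was 79.8 ± 9.43 CPM in layer 6 corticothalamic neurons and 96.7 ± 53.7 in layer 6b neurons, the latter on 49 UMIs, against 41.9 ± 6.11 in the Rorb class and 23.2 ± 4.15 in Cux2 neurons of the upper layers. Adk was highest among Hip neurons in dentate granule cells, at 224 ± 31.7 CPM, with a range separate from that of the next class, Pvalb interneurons (143 ± 19.2). In PFC, layer 6b neurons averaged 401 ± 165 CPM of Adk, and the range overlapped that of the next class. Nt5e averaged 22.8 ± 6.45 CPM in CA2, and Slc29a1 38.1 ± 12.3 CPM in PFC Pvalb interneurons against 2.62 ± 0.530 in CA1. Both of those classes overlapped the class next in order.

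**Figure D2:**
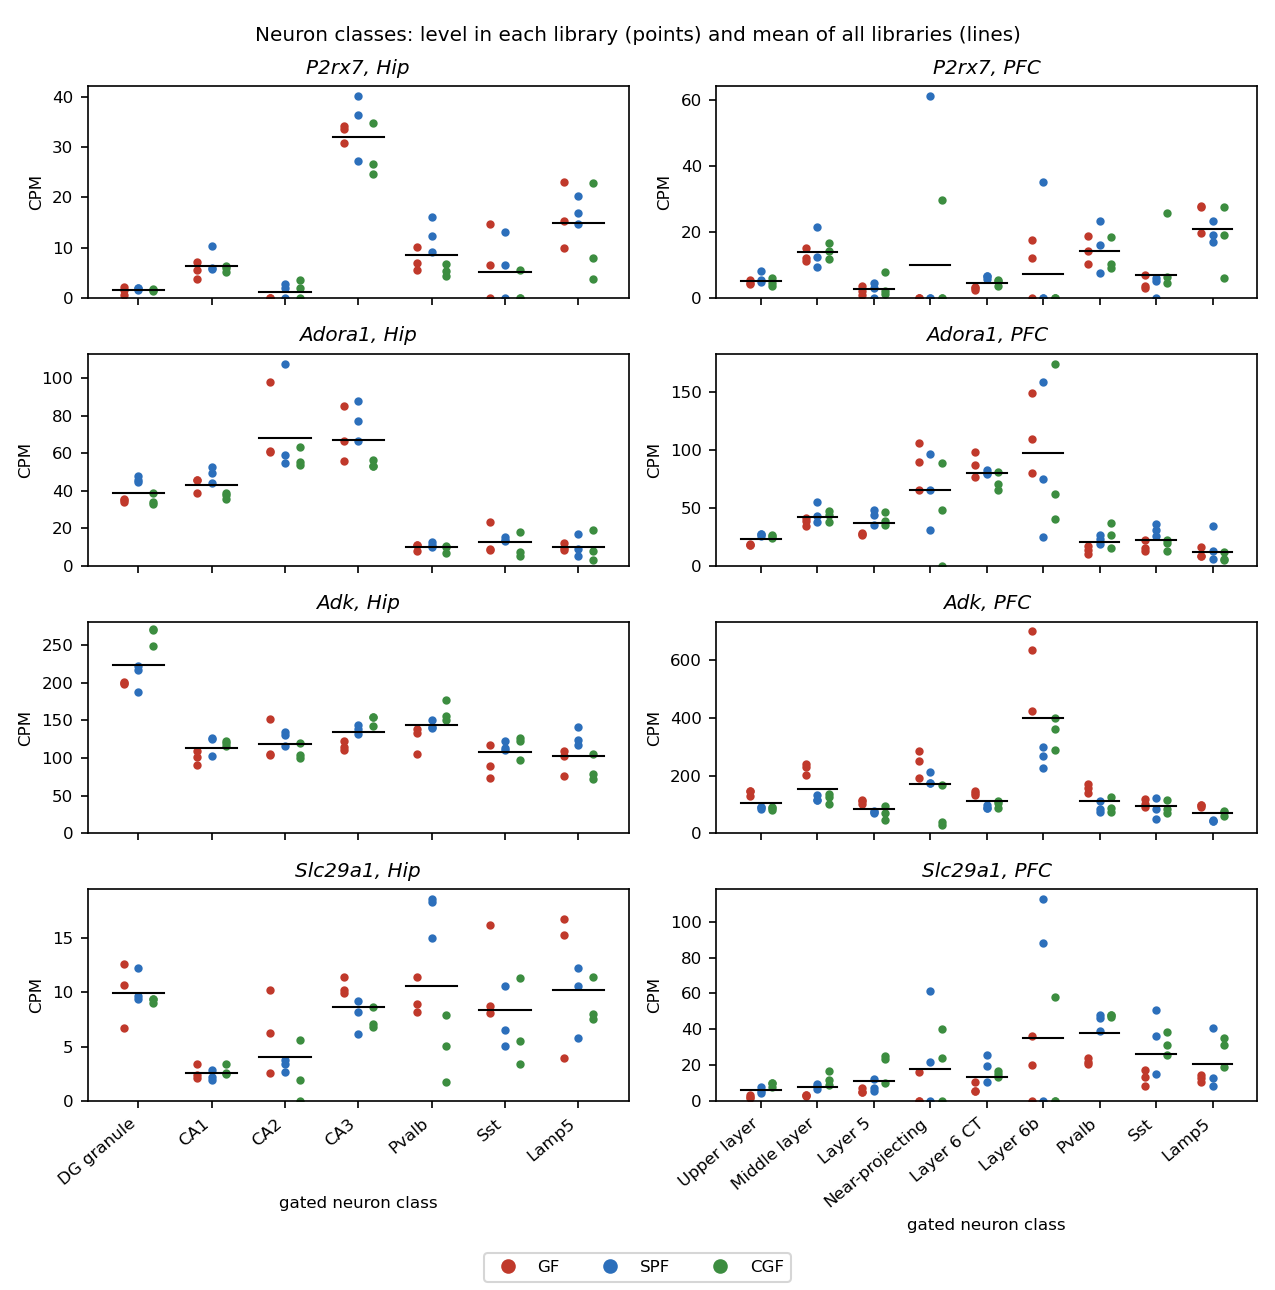
Levels of P2rx7, Adora1, Adk and Slc29a1 in CPM (vertical axes) in each neuron class of Hip and PFC, with 1 point per library and a line at the mean. The 9 CA3 points of P2rx7 lie above all points of the other Hip classes. Among Hip classes Adk is highest in dentate granule cells, and among PFC classes in layer 6b neurons.

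Genes with the most similar pattern over types were listed for each member by Pearson's r of log2(CPM + 1), over 23 means of a type in a region. These points share libraries and depth, and the values are descriptive. P2ry12 was most like Hpgds (r = 0.965), Tg (0.958) and Susd3 (0.949), and P2ry13 most like Gm44067 (0.961), Pilra (0.957) and Rasal3 (0.956). Entpd1 was nearest to Gm26510 (0.871), Vsir (0.860) and Lyn (0.855). P2rx7 was nearest to Slc29a3 (0.891), Slc9a9 (0.883) and Abhd12 (0.8702), the first of which is itself a nucleoside transporter of the pathway list. For Adora1 the list read Gpd1 (0.895), Sprn (0.895) and Tm7sf3 (0.890), and for Adora2a Gm20139 (0.874), Rrad (0.868) and Rasgrp2 (0.848). The likeness was lower for Adk, with 4930579H20Rik (0.849), Slc30a10 (0.819) and Cth (0.818), and for Slc29a1, with Maf (0.807), Pacsin2 (0.793) and Pitpna (0.785). Nt5e was nearest to Dnajc5b (0.882), Unc5c (0.855) and Adgrg2 (0.830). The 3 genes nearest to Entpd2, Gm12336 (0.997), Rnase13 (0.995) and Reg3d (0.994), were, like Entpd2, near 0 in every type, which leaves those coefficients without content.

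Whether the microbiota was linked to these genes was asked first by comparing GF with SPF mice in Hip. Sums per library of 7 cell types were fitted with edgeR's quasi-likelihood test, and a difference was called at a Benjamini-Hochberg adjusted p under 0.05 over all genes of a type. Of the 70 pairs of a member and a type, 41 passed the filter on low counts. Of these 41, 13 were called, 5 higher and 8 lower in GF mice, beside 32.8% of all pairs of a gene and a type in the same comparison, 18.4% higher and 14.4% lower. The share of members called was therefore close to that of all genes, and the median log2 fold change was -0.13 over the 41 pairs, beside medians of all genes of -0.01 to 0.04 in the 7 types.

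In Hip microglia, Entpd1 rose and P2ry12 did not pass the test. Entpd1 stood at 639, 583 and 829 CPM in GF mice, 489, 552 and 373 in SPF mice and 560.1, 577 and 575 in CGF mice. Every GF value was above every SPF value, and the log2 fold change was 0.56 ± 0.16 (SE, edgeR adjusted p = 0.0127). The call was lost without SPF mouse 32 or without GF mouse 7. P2ry13 was read at 38.5, 51.00 and 50.5 CPM in GF mice, 17.2, 27.8 and 9.86 in SPF mice and 58.7, 28.1 and 36.5 in CGF mice, 127 UMIs in all. GF and SPF values did not overlap and the log2 fold change was 1.36 ± 0.37 (edgeR adjusted p = 0.00856). P2ry12 was read at 652, 574 and 539 CPM in GF mice, 771, 689 and 400.2 in SPF mice and 947, 540.3 and 726 in CGF mice, with groups that overlapped and a log2 fold change of -0.05 ± 0.20 (edgeR adjusted p = 0.883). P2rx7 also overlapped, at 241, 231 and 221 CPM in GF mice, 219.8, 232 and 116 in SPF mice and 276, 256 and 219 in CGF mice (0.31 ± 0.20, edgeR adjusted p = 0.274). The 21 microglial markers, none at 0 in these nuclei, include the 8 held out of the gate. They summed to 12177–13124 CPM in the GF, 9315–11325 in the SPF and 10386–11748 in the CGF mice, with no overlap between GF and SPF mice. The 9 border macrophage markers, 3 of them at 0, summed to 174–298 CPM in GF against 69.0–105 in SPF and 104–129 in CGF mice, and the 16 astrocyte markers to 2495–2687 against 3485–4389 and 3769–4927. Genes inside an opposite-strand gene, such as P2ry13, took 1.88%–1.98% of the UMIs of GF against 1.34%–1.47% of SPF microglia, and genes under 20 kb 29.7%–32.6% against 20.99%–22.9%. Genes over 100 kb, such as Entpd1 with 129237 bases, took 30.4%–32.6% of the UMIs of GF against 40.8%–41.2% of SPF microglia. The part of these lists and shares in the rise of Entpd1 and P2ry13 was not tested.

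**Figure D3:**
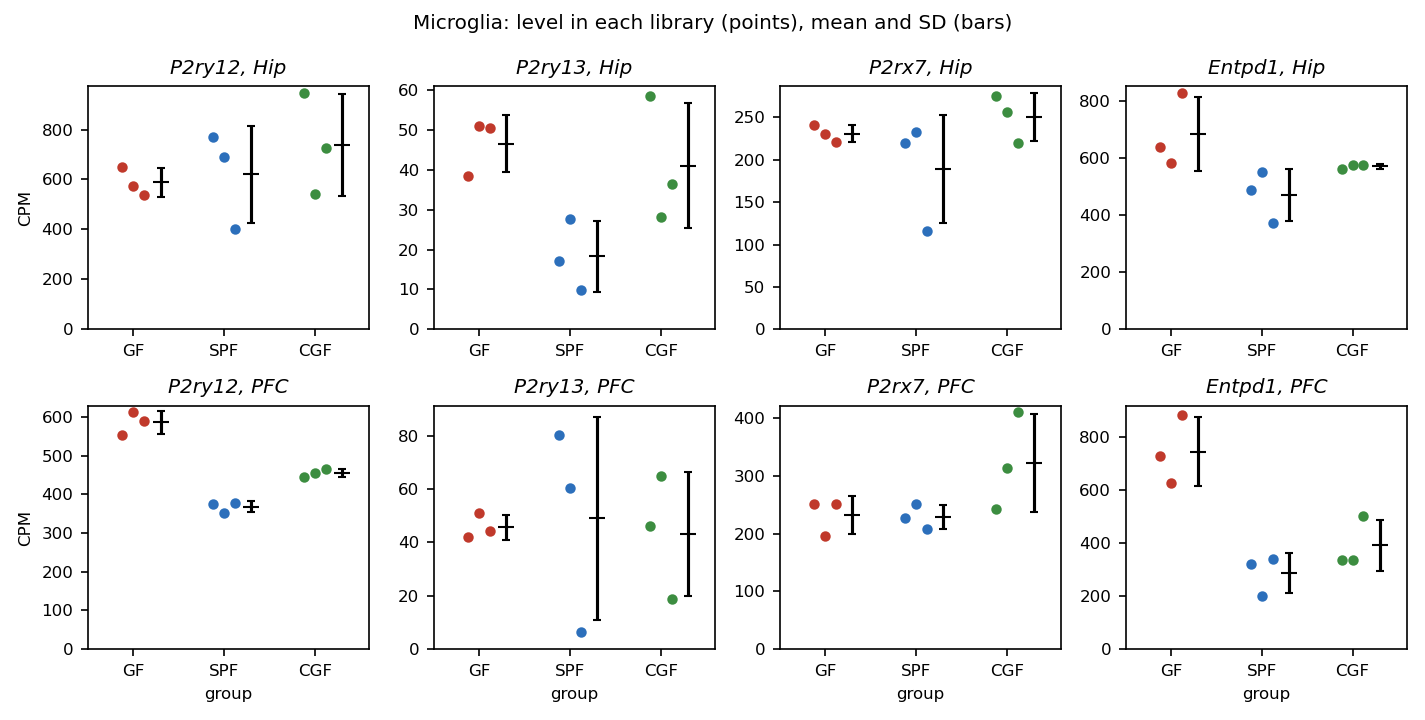
Levels of P2ry12, P2ry13, P2rx7 and Entpd1 in microglia in CPM (vertical axes) by group and region, with 1 point per library and the mean ± SD of 3 mice. GF and SPF points of Entpd1 are separate in both regions, and those of P2ry12 are separate in PFC only.

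Adora1 was lower in GF mice in 4 of the 7 Hip types in which it was tested. In microglia it was read at 15.4, 21.5 and 26.6 CPM in GF mice, 42.9, 51.7 and 72.9 in SPF mice and 55.7, 59.1 and 46.3 in CGF mice. The 3 GF values lay below all others, and the log2 fold change against SPF was -1.36 ± 0.33 (edgeR adjusted p = 0.00395). The GF sums of these microglia held 372522–389601 UMIs, so each GF value rests on few counts. Oligodendrocytes had 58.4, 52.5 and 39.6 CPM in GF mice, 83.9, 99.5 and 85.1 in SPF mice and 68.7, 74.4 and 66.1 in CGF mice, again with every GF value below every SPF and CGF value (-0.77 ± 0.15, edgeR adjusted p = 0.00148). Excitatory neurons had 43.9, 47.2 and 47.7 CPM in GF mice, 49.3, 53.4 and 57.9 in SPF mice and 41.2, 39.98 and 41.8 in CGF mice, where GF lay below SPF mice in CPM (-0.37 ± 0.06, edgeR adjusted p = 0.00100). Without TMM factors that value was -0.21 (adjusted p = 0.0331). The CGF values were below the GF values in CPM, but after TMM scaling GF against CGF gave -0.03 ± 0.06 (edgeR adjusted p = 0.712), so no order of these 2 groups is read. In astrocytes the groups overlapped, at 41.9, 21.3 and 32.5 CPM in GF mice, 50.9, 39.3 and 62.6 in SPF mice and 32.4, 35.4 and 47.03 in CGF mice (-0.64 ± 0.22, edgeR adjusted p = 0.0380), and the call was lost without any one of SPF mice 30 and 32 and GF mice 6 and 7. The 16 markers of excitatory neurons, none at 0, moved the same way in these glia. Their summed level was 1439–1694 CPM in the GF, 2295–2942 in the SPF and 2088–2541 in the CGF microglia, 1272–1578, 2007–2510 and 1881–2374 in oligodendrocytes, and 1380–1400 (GF), 1754–2340 (SPF) and 1513–2081 (CGF) in astrocytes. The 16 oligodendrocyte markers summed to 454–674 CPM (GF), 943–1268 (SPF) and 871–965 (CGF) in the microglia, and to 370.0–551, 608–859.9 and 582–722 in the astrocytes. The 15 OPC markers summed to 229–542 CPM (GF), 590.1–773 (SPF) and 779–1103 (CGF) in the microglia, to 483–652, 711–848 and 749–845 in the oligodendrocytes, and to 2958–3377, 3460–4007 and 3811–4237 in the astrocytes. The part of these 3 marker lists in the lower Adora1 of glia was not tested. In Hip excitatory neurons the OPC markers summed to 891–1071 CPM (GF), 1209–1315 (SPF) and 1266–1331 (CGF). The oligodendrocyte markers there summed to 284–309, 316–456 and 293–410 CPM. Neuron classes also differed in Adora1. The part of these markers and of the mixture of classes in the lower Adora1 of these neurons was not tested.

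In Hip neurons P2ry12 was higher and Adk lower in GF mice. P2ry12 in excitatory neurons was read at 35.9, 39.8 and 46.9 CPM in GF mice, 19.3, 22.4 and 20.4 in SPF mice and 26.8, 25.8 and 32.8 in CGF mice. GF values lay above all SPF and CGF values (0.82 ± 0.12, edgeR adjusted p = 0.000476). Interneurons had 35.8, 34.99 and 37.4 CPM in GF mice, 21.9, 28.2 and 18.1 in SPF mice and 26.4, 24.4 and 28.4 in CGF mice and the same order of GF above both other groups (0.54 ± 0.15, edgeR adjusted p = 0.0118). The 21 microglial markers, none at 0, also separated these interneurons, at 97.8–109.5 CPM (GF), 77.4–90.3 (SPF) and 58.1–68.3 (CGF), and their part in the difference was not tested. Adk was read at 136, 145 and 143 CPM in GF mice, 157, 149 and 153 in SPF mice and 166, 172 and 188 in CGF mice in excitatory neurons, with GF below the other groups (-0.28 ± 0.06, edgeR adjusted p = 0.00358). Without TMM factors, the scaling by which edgeR aligns libraries, that value was -0.12 (adjusted p = 0.140). In interneurons it was 103, 101 and 104 CPM in GF mice, 130.4, 123 and 129.8 in SPF mice and 141, 126 and 117 in CGF mice, again with GF lowest (-0.43 ± 0.09, edgeR adjusted p = 0.00130). Measures of the whole library moved with these values. Genes over 100 kb, such as Adk, took 51.6%–54.1% of the UMIs of GF excitatory neurons in Hip against 63.1%–64.8% in SPF mice, and genes under 20 kb 19.8%–21.8% against 10.5%–11.9%. Mitochondrial genes took 0.645%–1.096% of GF against 0.128%–0.471% of SPF libraries. The part of these shifts in the P2ry12 and Adk values was not tested. In Hip interneurons the excitatory markers summed to 1829–2089 CPM (GF), 2179–2406 (SPF) and 1888–2458 (CGF). The OPC markers there summed to 1168–1257, 1509–1618 and 1524–1634 CPM and the oligodendrocyte markers to 135–175, 183–328 and 209–233. The part of these lists in the Adk difference of interneurons was not tested. In Hip astrocytes, where Adk was highest, the log2 fold change was 0.11 ± 0.13 (edgeR adjusted p = 0.539).

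Nt5e moved in opposite directions in Hip excitatory neurons and oligodendrocytes. In excitatory neurons it was read at 11.3, 13.6 and 13.3 CPM in GF mice, 7.99, 8.91 and 6.66 in SPF mice and 7.96, 9.36 and 9.49 in CGF mice. GF values lay above all SPF and CGF values (0.53 ± 0.13, edgeR adjusted p = 0.00862). In oligodendrocytes it was read at 8.87, 4.38 and 8.42 CPM in GF mice, 16.6, 18.9 and 16.4 in SPF mice and 16.2, 16.9 and 13.5 in CGF mice, on 223 UMIs in all. There GF values lay below both other groups (-1.23 ± 0.29, edgeR adjusted p = 0.00419). In these oligodendrocytes the 16 astrocyte markers summed to 603–629 CPM (GF), 973–1221 (SPF) and 969–1228 (CGF), and the excitatory markers given above were lowest in GF mice as well. Their part in the fall was not tested. The difference between these types was not tested. P2rx7 in excitatory neurons, at 6.69, 5.20 and 6.63 CPM in GF mice, 6.79, 10.3 and 8.69 in SPF mice and 8.42, 6.34 and 6.21 in CGF mice, was lower in GF than in SPF mice (-0.63 ± 0.19, edgeR adjusted p = 0.0199). That call was lost without TMM factors (-0.47, adjusted p = 0.0601), without SPF mouse 31 and without GF mouse 6. CA3 neurons, the Hip class highest in P2rx7, gave 4115584, 2845935 and 4027355 UMIs of the excitatory sums in GF mice. In SPF mice they gave 5049159, 5973928 and 4901321. The excitatory sums were 33648976–44665841 UMIs in GF and 41074731–42014248 in SPF mice. Within CA3 the GF and SPF values of P2rx7 given above overlapped. The part of the mixture of classes in the lower P2rx7 was not tested.

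**Figure D4:**
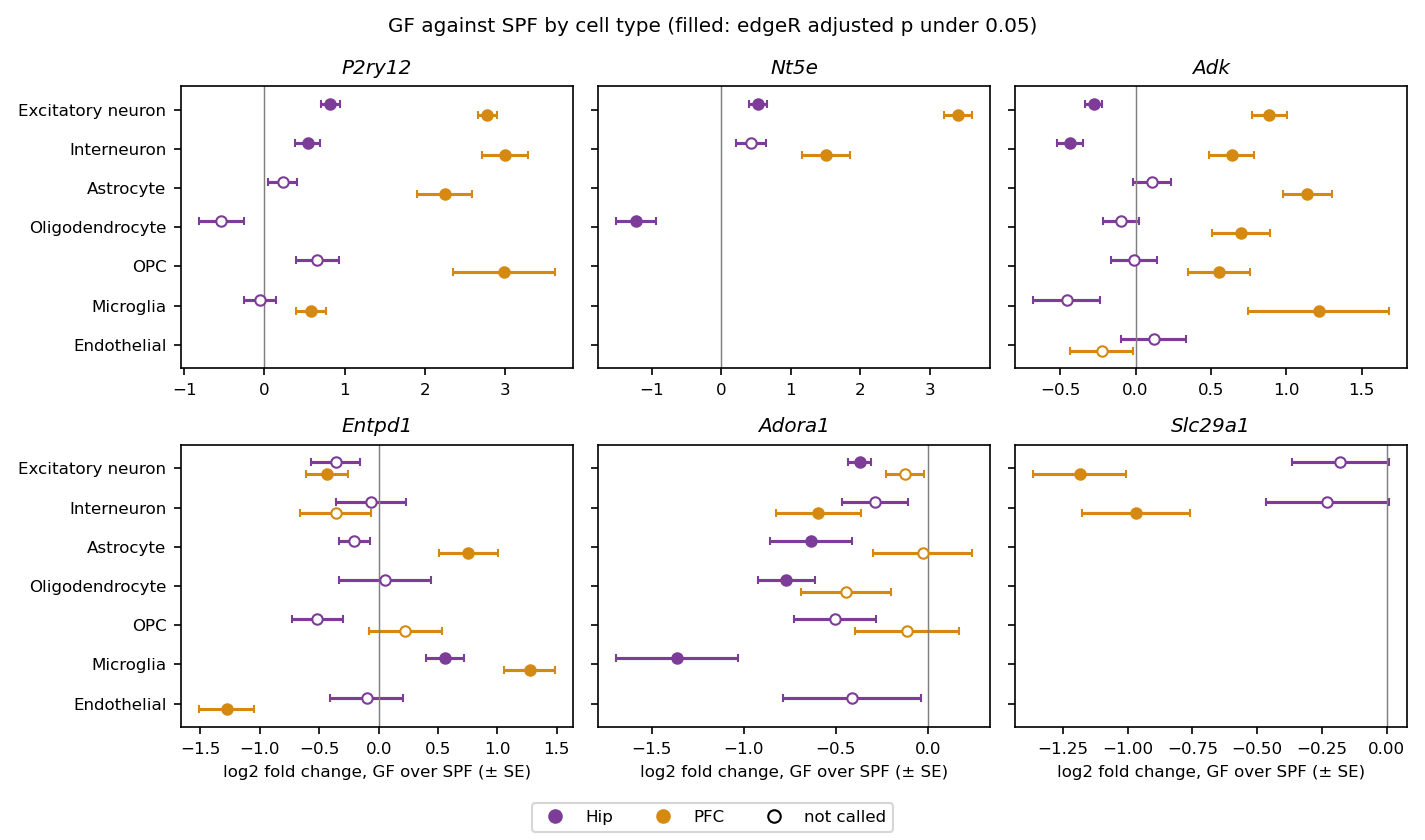
The log2 fold change of GF against SPF mice (edgeR, error bars ± SE) for P2ry12, Nt5e, Adk, Entpd1, Adora1 and Slc29a1 in each cell type tested, with Hip in purple, PFC in orange and filled points for an adjusted p under 0.05. Adk lies below 0 in Hip neurons and above 0 in PFC neurons, and P2ry12 in neurons is above 0 in both regions.

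In PFC the same comparison called 20 of 35 pairs, 15 higher and 5 lower in GF mice, beside 47.8% of all pairs of a gene and a type, 24.3% higher and 23.4% lower. The median log2 fold change was 0.13 over the 35 pairs, beside medians of all genes of -0.03 to 0.02. GF libraries of this region were the deep ones, at a median of 6721–7338.5 UMIs per barcode against 3028–3187 in SPF mice. Summed counts were also thinned to the lowest mean UMIs per nucleus of any library of the type and region. With them 14 of the pairs were called. Single nuclei were not thinned or gated again, so their depths still differed. Of the 20 calls, 2 were P2ry12 in astrocytes and in OPC, where only GF libraries reached the level of the filter on low counts. P2ry12 in interneurons also passed only with the GF libraries. The values of these pairs are given as a description with no test.

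P2ry12 was higher in GF mice in PFC excitatory neurons, interneurons and microglia. Excitatory neurons had 27.9, 27.4 and 26.2 CPM in GF mice, 4.30, 4.72 and 4.08 in SPF mice and 4.93, 3.85 and 4.06 in CGF mice. The GF values lay far above the other 2 groups, which overlapped each other, and the log2 fold change against SPF was 2.78 ± 0.12 (edgeR adjusted p = 5.71e-09). Interneurons had 30.3, 31.8 and 24.7 CPM in GF mice, 1.99, 3.52 and 5.46 in SPF mice and 4.69, 2.79 and 3.78 in CGF mice, with the same separation. Of these SPF and CGF values only 5.46 and 4.69 reached the filter's level, so no test is given. Astrocytes had 30.6, 37.5 and 38.96 CPM in GF mice, 7.42, 11.05 and 5.21 in SPF mice and 6.39, 9.99 and 9.51 in CGF mice, on 197, 14 and 20 UMIs in the GF, SPF and CGF mice. Microglial markers were higher there too, at 213.9–250.5 CPM (GF), 169–193 (SPF) and 143–190 (CGF), and their part was not tested. In OPC, 97 UMIs were counted (GF), 3 (SPF) and 9 (CGF), and the pair was below the filter with thinned counts and with the stricter gate. Oligodendrocytes were below the filter throughout, on 73, 9 and 13 UMIs. In microglia, where the level of P2ry12 was highest, the values were 555, 614 and 589.7 CPM in GF mice, 375, 352 and 378 in SPF mice and 445, 455 and 467 in CGF mice. GF values lay above both other groups, by a far smaller margin than in neurons (0.58 ± 0.19, edgeR adjusted p = 0.0133). This last call was lost without SPF mouse 31, with a stricter marker gate (0.42, adjusted p = 0.160) and with thinned counts (0.46, adjusted p = 0.0715). Microglial markers summed to 13040–15240 CPM in the GF, 9519–11293 in the SPF and 9997–11018 in the CGF microglia of PFC, and their part in the microglial difference was not tested.

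The neuronal P2ry12 signal was set beside other microglial genes, chosen after the values had been seen (levels in excitatory neurons). The 8 microglial markers held out of the gate were read in excitatory neurons at 0.280%–0.689% of their microglial level in Hip and 0.420%–0.898% in PFC. Siglech, 1 of these 8, stood at 0.0662%–0.276% and 0.0891%–0.335%, and Gpr34, another of them, at 1.11%–1.96% and 0.308%–1.71%. P2ry13 stood at 0.574%–4.59% in Hip, with 2.45%–4.59% in its SPF mice, and at 0.165%–10.1% in PFC. P2ry12 reached 5.51%–8.70% of its own microglial level in the GF, 2.50%–5.09% in the SPF and 2.83%–4.77% in the CGF mice in Hip. In PFC it reached 4.45%–5.04% in the GF, 1.08%–1.34% in the SPF and 0.847%–1.11% in the CGF mice. The share of P2ry12 was thus above that of the 8 markers in every group, but in SPF mice of PFC it was below that of Entpd1, at 1.64%–3.27%. In GF mice of PFC the Entpd1 share was 0.474%–0.686%. The 21 microglial markers, which include these 8, summed to 70.1–87.2 CPM in the GF, 88.9–97.2 in the SPF and 69.5–84.5 in the CGF excitatory neurons of PFC. In Hip they summed to 71.9–81.1, 61.3–77.0 and 50.4–70.1 CPM. Their part in the P2ry12 difference was not tested.

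P2ry14, inside the same host gene, was also higher in GF mice. In excitatory neurons of PFC it was read at 184, 151 and 137 CPM in GF mice, 4.83, 5.01 and 4.13 in SPF mice and 7.45, 4.01 and 7.76 in CGF mice, and in Hip at 214, 263 and 233 CPM in GF mice, 94.9, 107 and 89.04 in SPF mice and 102, 128 and 129 in CGF mice. GF values of P2ry14 lay above all others in both regions. For P2ry13, also inside Med12l, groups overlapped in excitatory neurons of both regions. It was read at 0.404, 0.408 and 0.640 CPM in GF and 0.132, 1.07 and 0.655 in SPF mice of PFC. In Hip it was 0.493, 0.416 and 0.557 CPM in GF and 0.670, 0.682 and 0.452 in SPF mice. The host gene Med12l went the other way, at 181–204 CPM in the GF, 253–282 in the SPF and 268–282 in the CGF excitatory neurons of PFC. In Hip it was 200.2–223, 268–308 and 276–298 CPM. Gpr34, a microglial receptor gene that lies inside Cask on the opposite strand, was 5.04–6.38 CPM in GF and 0.728–1.26 in SPF excitatory neurons of PFC. In all, 2228 of 30843 annotated genes lie wholly inside a protein-coding gene of the opposite strand. Their share of the UMIs of excitatory neurons was 1.55%–1.79% in the GF, 0.661%–0.706% in the SPF and 0.657%–0.760% in the CGF mice in PFC, and 1.84%–1.93%, 1.20%–1.31% and 1.33%–1.503% in Hip. These shares were computed after the P2ry12 values had been seen. The strand used in counting is not given in the sources used here, so reads from P2ry12 and from Med12l cannot be told apart, and the part of these shares in the P2ry12 difference was not tested.

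**Figure D5:**
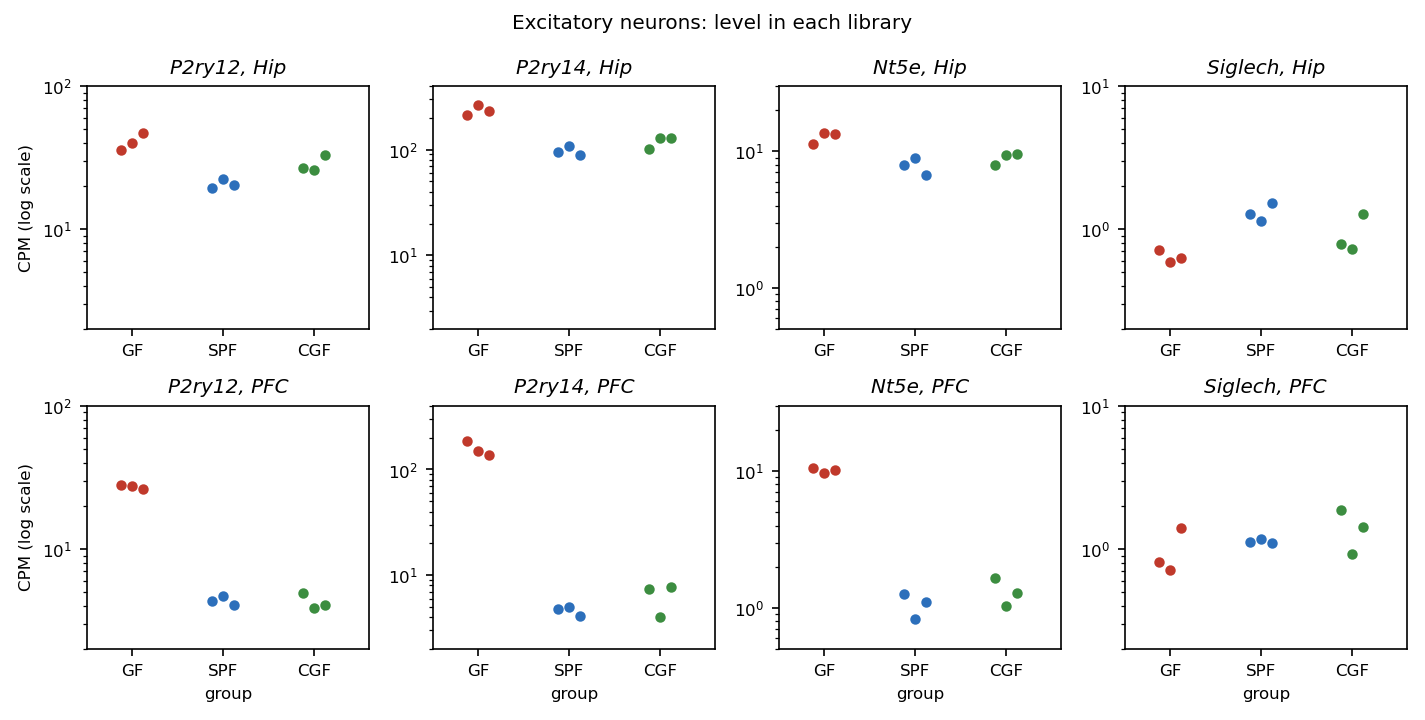
Levels of P2ry12, P2ry14, Nt5e and Siglech in excitatory neurons in CPM (log axes) by group and region, with 1 point per library. P2ry12, P2ry14 and Nt5e are higher in GF mice in both regions, with the wider gap in PFC.

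Nt5e rose in PFC neurons as well. In excitatory neurons it was read at 10.6, 9.70 and 10.2 CPM in GF mice, 1.26, 0.827 and 1.11 in SPF mice and 1.66, 1.03 and 1.29 in CGF mice, on 1472 UMIs in GF and 58 in SPF mice. Every GF value was several times every other value (3.41 ± 0.20, edgeR adjusted p = 5.54e-08). In interneurons it was read at 15.5, 15.7 and 11.3 CPM in GF mice, 8.62, 4.70 and 2.73 in SPF mice and 8.52, 5.12 and 3.78 in CGF mice, with GF above both groups (1.51 ± 0.34, edgeR adjusted p = 0.00154). GF libraries of PFC stood apart in depth, in mitochondrial share and in the share of long genes, and the part of these in the Nt5e values was not tested. In the interneurons the 16 interneuron markers summed to 16611–18304 CPM (GF), 13949–14438.5 (SPF) and 13072–14310 (CGF), and the excitatory markers to 1923–2236, 2739–2958 and 2759–2939. Their part in the interneuron difference was not tested.

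Adk rose in 6 of the 7 PFC types, the calls in OPC and microglia being the weakest. Genes over 100 kb took 56.7%–58.04% of the UMIs of GF against 50.6%–52.7% of SPF excitatory neurons in PFC, the reverse of Hip, and mitochondrial genes 0.359%–0.594% against 1.66%–3.22% of the libraries. Interneuron markers summed to 3255–3641 CPM (GF), 1435–1932 (SPF) and 1721–1942 (CGF) in PFC oligodendrocytes and to 6076–6925, 4367–4648 and 3651–4381 in OPC. OPC markers summed to 3015–3155, 2306–2536 and 2510–2814 CPM in astrocytes. Excitatory markers were lower in GF than in SPF nuclei of these types. The part of these shares and lists in the Adk values was not tested. In astrocytes it was read at 444, 741 and 596 CPM in GF mice, 306, 274 and 251.5 in SPF mice and 351, 387 and 348 in CGF mice. GF values lay above all others (1.14 ± 0.16, edgeR adjusted p = 3.53e-06). Excitatory neurons had 159.7, 157 and 173 CPM in GF mice, 94.1, 99.5 and 98.99 in SPF mice and 99.9, 109 and 84.6 in CGF mice (0.89 ± 0.11, edgeR adjusted p = 3.16e-05) and oligodendrocytes 188, 177 and 177 CPM in GF mice, 112, 102 and 119.6 in SPF mice and 87.9, 125 and 111 in CGF mice (0.70 ± 0.19, edgeR adjusted p = 0.00524). In both the GF mice were above the other groups without overlap. Interneurons had 120.0, 133 and 121 CPM in GF mice, 91.5, 89.3 and 72.6 in SPF mice and 118, 89.9 and 71.2 in CGF mice, with GF above SPF (0.64 ± 0.15, edgeR adjusted p = 0.00180). OPC were called at 0.56 ± 0.21 (edgeR adjusted p = 0.0383), and the call was lost without any one SPF mouse, without GF mouse 6, with thinned counts (adjusted p = 0.0628), under DESeq2 (0.116) and without TMM factors (0.0532). Microglia were called at 1.21 ± 0.47 (edgeR adjusted p = 0.0375) on 121 GF, 10 SPF and 23 CGF UMIs, with no SPF library at the filter's level of 65.2 CPM, and lost the call without any one SPF mouse, under DESeq2 (adjusted p = 0.0849) and with thinned counts (0.0848).

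Entpd1 rose in PFC microglia and fell in PFC endothelial nuclei. Microglia had 728, 625 and 884 CPM in GF mice, 322, 201 and 339 in SPF mice and 335, 336 and 504 in CGF mice. GF values lay above all others (1.27 ± 0.21, edgeR adjusted p = 1.13e-05). The microglial markers given above for these microglia were higher in GF mice as well, and their part in the Entpd1 difference was not tested. Endothelial nuclei had 78.9, 108 and 86.9 CPM in GF mice, 235, 175 and 246 in SPF mice and 146, 230.5 and 173 in CGF mice. There GF values lay below all others (-1.28 ± 0.23, edgeR adjusted p = 0.000267). The 11 mural markers, none at 0, summed to 3043–3866 CPM in these GF nuclei against 939–2034 in SPF and 1116–2781 in CGF mice, and the 16 interneuron markers to 794–1039 against 427–508 and 428–609. Mural nuclei of PFC held 39.1 ± 46.3 CPM of Entpd1, and the part of these markers in the endothelial difference was not tested. The smaller calls in astrocytes (0.75 ± 0.25, edgeR adjusted p = 0.0158) and excitatory neurons (-0.43 ± 0.17, edgeR adjusted p = 0.0458) were lost with thinned counts, and without SPF mice 30 or 32 or GF mouse 7 in astrocytes and SPF mice 30 or 31 or any GF mouse in excitatory neurons. The call in excitatory neurons was also lost with no filter (adjusted p = 0.0733). The microglial markers given above for PFC astrocytes moved the same way as Entpd1 there, and their part was not tested.

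Slc29a1 fell in PFC neurons. It was read at 3.21, 4.90 and 3.76 CPM in GF mice, 10.99, 10.95 and 8.17 in SPF mice and 13.5, 10.4 and 12.3 in CGF mice in excitatory neurons. GF values lay below all others (-1.19 ± 0.18, edgeR adjusted p = 0.000109). Interneurons had 15.3, 19.1 and 14.6 CPM in GF mice, 35.8, 43.5 and 22.4 in SPF mice and 31.5, 35.9 and 40.96 in CGF mice and the same order (-0.97 ± 0.21, edgeR adjusted p = 0.00106). The 16 interneuron markers, none at 0, summed to 244.9–265 CPM in GF excitatory neurons of PFC against 316.1–369.7 in SPF and 289.6–335.6 in CGF mice. Genes under 20 kb, such as Slc29a1, took 16.8%–17.9% of the UMIs of these GF neurons against 19.8%–19.9% and 18.7%–21.2%. The part of both in the fall was not tested. Adora1 was lower in PFC interneurons, at 14.1, 10.9 and 15.7 CPM in GF mice, 17.2, 24.1 and 22.9 in SPF mice and 13.6, 18.6 and 23.3 in CGF mice (-0.60 ± 0.23, edgeR adjusted p = 0.0390), a call that was lost under DESeq2 (adjusted p = 0.0644), with the stricter gate (0.0828) and without any one of SPF mice 31 and 32 and GF mice 5 and 6. Markers of excitatory neurons summed to 1923–2236 CPM in the GF, 2739–2958 in the SPF and 2759–2939 in the CGF interneurons, and their part in that difference was not tested. In PFC excitatory neurons the log2 fold change of Adora1 was -0.12 ± 0.10 (edgeR adjusted p = 0.309). P2rx7 in PFC microglia overlapped between groups, at 252, 195 and 250.6 CPM in GF mice, 228, 251.1 and 209 in SPF mice and 243, 314 and 411 in CGF mice (-0.05 ± 0.23, edgeR adjusted p = 0.881). P2ry13 in PFC microglia was below the filter, with 41.95, 51.01 and 44.2 CPM in GF mice, 80.4, 60.3 and 6.52 in SPF mice and 46.2, 64.98 and 18.7 in CGF mice.

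Colonization was examined by comparing CGF with SPF mice. In Hip, 1 of 41 pairs was called, 0 higher and 1 lower, beside 0.253% of all pairs, 0.150% higher and 0.104% lower. That pair was Adora1 in excitatory neurons (-0.34 ± 0.06, edgeR adjusted p = 0.0441), where CGF values lay below all SPF values, and the call was lost without any one of the 9 mice. At an unadjusted p under 0.05 edgeR had 10 pairs and DESeq2 7, and DESeq2 called 3. P2ry12 in Hip excitatory neurons stood at 0.50 ± 0.12 (edgeR adjusted p = 0.0986), with every CGF value above every SPF value, and P2ry13 in Hip microglia at 1.16 ± 0.38 (edgeR adjusted p = 0.487). In PFC edgeR called 0 of 35 pairs, beside 0.177% of all pairs, 0.0862% higher and 0.0909% lower, with 4 pairs at an unadjusted p under 0.05. DESeq2 also called 0 there, with 3 at an unadjusted p under 0.05.

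The comparison of GF with CGF mice shares its GF libraries with the comparison above and adds no independent GF sample. In Hip it called 12 of 41 pairs, 2 higher and 10 lower in GF mice, beside 33.8% of all pairs, 18.5% higher and 15.2% lower. Adk was lower in GF mice in excitatory neurons (-0.52 ± 0.06, edgeR adjusted p = 0.000122), interneurons (-0.49 ± 0.09, 0.000442), OPC (-0.55 ± 0.15, 0.00872), microglia (-0.68 ± 0.23, 0.0305) and astrocytes (-0.37 ± 0.13, 0.0312). Adora1 was lower in microglia (-1.32 ± 0.35, edgeR adjusted p = 0.00735) and oligodendrocytes (-0.45 ± 0.16, 0.0379), and Nt5e was lower in oligodendrocytes (-1.12 ± 0.29, 0.00789). P2ry12 was higher in excitatory neurons (0.32 ± 0.12, edgeR adjusted p = 0.0470) and OPC (0.92 ± 0.28, 0.0185) and lower in oligodendrocytes (-0.90 ± 0.27, 0.0180). Entpd1 was lower in OPC (-0.80 ± 0.20, edgeR adjusted p = 0.00688). In Hip OPC the astrocyte markers summed to 1046–1230 CPM (GF) and 1368–1460 (CGF), and the interneuron markers to 5967–6149 and 7140–8043. Their part in the lower Entpd1 and Adk of OPC was not tested. The count of called pairs fell to 6 without CGF mouse 18 and to 7 without GF mouse 7. Calls were lost without CGF mouse 17 or 18 or GF mouse 5 for Adk in astrocytes, CGF mouse 18 or GF mouse 5 or 6 for Adk in microglia, GF mouse 7 for Adk in OPC and GF mouse 6 for Nt5e. Adora1 in oligodendrocytes was lost without CGF mouse 17 or 18 or GF mouse 6 or 7. P2ry12 was lost in OPC without CGF mouse 17 or 18 or GF mouse 7, in oligodendrocytes without CGF mouse 18 or GF mouse 7, and in excitatory neurons without any one of 7 mice, CGF 17 and 18, the 3 SPF mice and GF 6 and 7. The excitatory call of P2ry12 was also lost under DESeq2 (adjusted p = 0.0606), with no filter (0.0522) and with only these 2 groups in the fit (0.0672), and its OPC call under DESeq2 (0.0784) and with thinned counts (0.0579). Without TMM factors the fold change of P2ry12 in excitatory neurons was 0.52 (adjusted p = 0.00606), and that of Adk was -0.31 in both excitatory neurons (0.00212) and interneurons (0.00692). DESeq2 also ended the calls of Adora1 in oligodendrocytes (0.0749) and Adk in microglia (0.102), and the stricter gate that of Adora1 (0.0615).

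In PFC, GF against CGF called 16 of 35 pairs, 11 higher and 5 lower in GF mice, beside 47.3% of all pairs, 24.2% higher and 23.1% lower. P2ry12 was higher in GF excitatory neurons (2.83 ± 0.12, edgeR adjusted p = 5.53e-09). Its calls in astrocytes and OPC are 2 of the 16, and there only GF libraries reached the level of the filter. In interneurons it also passed only with the GF libraries, so no test is given in these types. In microglia it was 0.26 ± 0.18 (edgeR adjusted p = 0.286). Nt5e was higher in excitatory neurons (3.11 ± 0.20, edgeR adjusted p = 9.90e-08) and interneurons (1.29 ± 0.31, 0.00262). Adk was higher in excitatory neurons (0.90 ± 0.11, edgeR adjusted p = 2.83e-05), interneurons (0.48 ± 0.14, 0.0105), astrocytes (0.73 ± 0.16, 0.000466) and oligodendrocytes (0.71 ± 0.19, 0.00487). Entpd1 was higher in microglia (0.89 ± 0.21, edgeR adjusted p = 0.00103) and lower in endothelial nuclei (-1.01 ± 0.24, 0.00270). Slc29a1 was lower in excitatory neurons (-1.42 ± 0.18, edgeR adjusted p = 2.50e-05) and interneurons (-1.06 ± 0.20, 0.000380). P2rx7, with 19.02, 12.1 and 9.17 CPM in GF mice, 25.99, 18.4 and 13.03 in SPF mice and 27.7, 38.5 and 25.8 in CGF mice in astrocytes, was lower in GF than in CGF mice there (-1.18 ± 0.31, edgeR adjusted p = 0.00269) and in oligodendrocytes (-0.79 ± 0.30, 0.0392). The oligodendrocyte call of P2rx7 was lost without any one CGF mouse and without GF mouse 6 or 7, under DESeq2 (adjusted p = 0.117) and with no filter (0.123), that of Adk in interneurons without CGF mouse 19 and that of Adk in oligodendrocytes without CGF mouse 17.

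The regions were compared within the 3 GF mice, whose libraries were closest in depth. Of 43 pairs, 4 were called, 2 higher and 2 lower in Hip, beside 10.9% of all pairs, 5.37% higher and 5.53% lower, and all 4 were in excitatory neurons. P2ry12 (0.45 ± 0.11, edgeR adjusted p = 0.00341) and Slc29a1 (0.55 ± 0.19, 0.0341) were higher in Hip, and Entpd1 (-1.11 ± 0.19, 0.000187) and Adk (-0.34 ± 0.09, 0.00730) were lower. Hip and PFC hold different neuron classes, so these differences are between mixtures of classes. Depth still separated the regions, at a median of 6081–6888.5 UMIs per GF excitatory neuron in Hip and 9310.5–10044 in PFC. In these neurons genes over 100 kb took 51.6%–54.1% of UMIs in Hip and 56.7%–58.04% in PFC. Genes inside an opposite-strand gene took 1.84%–1.93% and 1.55%–1.79%. Mitochondrial genes took 0.645%–1.096% and 0.359%–0.594% of the GF libraries. The part of these in the 4 calls was not tested. The count was 1 without GF mouse 7, when only Entpd1 kept its call. Adk also lost it without GF mouse 5 and Slc29a1 without GF mouse 6, and each under 1 alternative, Adk without TMM factors (adjusted p = 0.0518) and Slc29a1 with the stricter gate (0.0514).

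The difference between GF and SPF mice was itself tested between regions. Of 43 pairs, 15 were called, 1 with a higher and 14 with a lower value in Hip, beside 28.2% of all pairs, 12.8% higher and 15.3% lower. The median of all genes was -0.12 in excitatory neurons and -0.13 in oligodendrocytes in this test. For Adk in excitatory neurons the log2 difference between regions was -1.22 ± 0.13 (edgeR adjusted p = 5.56e-07), since it was lower in GF mice in Hip and higher in PFC. For Nt5e it was -2.94 ± 0.23 (2.44e-08) and for P2ry12 -2.02 ± 0.17 (3.52e-08), both higher in GF mice in each region and more so in PFC (edgeR adjusted p in parentheses). Slc29a1 was the 1 pair with a higher value in Hip (0.95 ± 0.27, edgeR adjusted p = 0.00672). The depth gap between GF and SPF mice runs in opposite directions in the 2 regions, so region and depth cannot be told apart in this test. Median UMIs per excitatory neuron were 6081–6888.5 in GF against 8835–9832 in SPF mice in Hip, and 9310.5–10044 against 3995–4231 in PFC.

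The other 53 pathway genes were tested in the same models. In Hip, GF against SPF covered 161 pairs of 43 genes, of which 20 were higher and 13 lower in GF mice, a smaller share than the 32.8% of all pairs (18.4% higher and 14.4% lower). P2ry6, a UDP receptor linked to microglial phagocytosis, rose in microglia, from 135 ± 14.2 CPM in SPF to 415 ± 43.0 in GF mice (SD, n = 3), with 186 ± 50.0 in CGF mice (log2 fold change 1.64, edgeR adjusted p = 1.32e-06). It was read at 431, 448 and 367 CPM in GF mice, 141, 119 and 146 in SPF mice and 243, 158 and 156 in CGF mice, with GF above every other value. P2ry14 rose in OPC (1.52, edgeR adjusted p = 2.84e-05), astrocytes (1.20, 2.19e-05) and interneurons (1.12, 2.23e-05), and Gpr34 rose in OPC (1.30, 0.0262). The largest falls were of Alpl, a phosphatase, in astrocytes (-0.90, edgeR adjusted p = 0.0436), of the AMP deaminase Ampd3 in excitatory neurons (-0.89, 0.000135) and interneurons (-0.60, 0.0243), of the lysosomal transporter Slc29a3 in excitatory neurons (-0.58, 0.0116) and of the adenylate kinase Ak5 in oligodendrocytes (-0.56, 0.00549).

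In PFC the list gave 99 pairs of 38 genes, with 30 higher and 14 lower in GF mice, beside 47.8% of all pairs (24.3% higher and 23.4% lower). The 5 largest fitted values were all of P2ry14. It rose from 4.66 to 157 CPM in excitatory neurons (log2 fold change 5.22, edgeR adjusted p = 2.01e-09), on 258 SPF and 22649 GF UMIs, and by 5.19 in interneurons, on 22 and 2643 UMIs. In astrocytes (4 SPF and 665 GF UMIs), OPC (3 and 548) and oligodendrocytes (1 and 176) it passed the filter on low counts through the GF libraries alone, so those pairs among the 30 are given as counts with no test. The largest falls were of the adenylate kinase Ak1, from 38.7 to 11.1 CPM in excitatory neurons (-1.65, edgeR adjusted p = 1.71e-07) and by 1.58 on the log2 scale in interneurons. Ampd2, another AMP deaminase, fell in OPC (-1.50, edgeR adjusted p = 0.00649), the vesicular nucleotide transporter Slc17a9 in excitatory neurons (-1.27, 0.000506) and the transporter Slc29a4 in interneurons (-1.17, 0.00861). Between CGF and SPF mice edgeR called 0 of these pairs in either region, with 27 of 161 in Hip and 9 of 99 in PFC at an unadjusted p under 0.05, and DESeq2 called 0 with 17 and 8. GF against CGF gave 16 higher and 13 lower of 161 in Hip and 26 higher and 13 lower of 99 in PFC, beside 33.8% and 47.3% of all pairs.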

How the data were processed

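Nuclei from Hip and PFC of 9 mice were sequenced as 18 10x libraries (3 GF, 3 SPF and 3 CGF mice per region). The authors made the deposited UMI counts, whole numbers per gene and nucleus with no normalization, with Cell Ranger (3.1.0 in the matrix headers) on mm10. Whether intronic reads were counted and which strand was used are not given in the sources used here.

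Barcodes with at least 200 genes and at most 10% mitochondrial UMIs were assigned to 13 classes by 118 marker genes, with a lead of 3 log units over the next class and at least 2 own markers (stricter gate: 10 and 3). No doublet caller was run.

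UMIs were summed per library and type. CPM are UMIs per 1000000 of that sum. For 7 types, the counts were fitted with edgeR 4.0.16 (filterByExpr, TMM, glmQLFit, glmQLFTest, R 4.3.3) over the 9 libraries of a region, or over all 18 for comparisons between regions, with Benjamini-Hochberg adjustment over all genes of a type and calls at 0.05. Standard errors were taken as the size of a log2 fold change over the root of its F value. The fits were tested on simulated counts.

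Both regions of a mouse pair by the number in the sample labels. Deviations from group means of the same mouse correlated by 0.208 to 0.457 across 15589 genes in excitatory neurons, against -0.306 to -0.0526 for other mice of the group. In microglia these ranges overlapped, at -0.0371 to 0.212 across 2951 genes for the same mouse and -0.247 to 0.122 for other mice. Deviations from a group mean cancel out within the group, so a positive value for the same mouse lowers those for other mice. The gap between same and other mice is therefore partly built in.

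Named were the 10 members in every test, the 5 largest rises and 5 largest falls per region among other pathway genes between GF and SPF mice, and the 3 genes most like each member. P2ry6, P2ry14, Med12l, Gpr34 and Siglech were given in more detail after values were seen. The members and lists were chosen with earlier results of these data known. Alternatives were DESeq2 1.42.0, no TMM factors, no filter, the stricter gate, thinned counts, only 2 groups in the fit, a replicate block and leaving out each mouse.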

Additional observations from a re-analysis of the deposited data

Results flagged for a closer look

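The difference between GF and SPF mice differed between Hip and PFC for 15 pairs of a gene and a type, by edgeR's interaction test with Benjamini-Hochberg adjustment. Values are the log2 fold change in Hip minus that in PFC, with the adjusted p.

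For P2ry12 the value was -2.02 in excitatory neurons (3.52e-08), -2.47 in interneurons, -1.97 in astrocytes and -2.36 in OPC. In interneurons, astrocytes and OPC of PFC the gene had passed the filter only with the GF libraries, so no test is read there. In PFC the OPC held 97 UMIs of P2ry12 in GF and 3 in SPF mice, and leaving out 1 mouse moved the OPC value between -1.45 and -7.18 and the stricter gate to -6.60, so it is no measure of size. The PFC astrocytes held 197 GF and 14 SPF UMIs. In microglia P2ry12 was not called. For Nt5e the value was -2.94 in excitatory neurons (2.44e-08), -1.09 in interneurons (0.0406) and -2.09 in oligodendrocytes (0.0189), and in oligodendrocytes the gene was lower in GF mice in Hip. In PFC oligodendrocytes Nt5e was below the filter of the comparison within that region, on 52 UMIs in all.

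Adk gave -1.22 in excitatory neurons (5.56e-07), -1.08 in interneurons (3.92e-05), -0.97 in astrocytes (0.00159), -0.86 in oligodendrocytes (0.00616) and -1.64 in microglia (0.0308). Adk was lower in GF mice in Hip neurons and higher in PFC neurons, and both of those differences were called on their own. Without TMM factors the Hip call in excitatory neurons was lost (-0.12, edgeR adjusted p = 0.140). The share of UMIs in genes over 100 kb, of which Adk is 1, moved the same way in excitatory neurons, at 51.6%–54.1% (GF) against 63.1%–64.8% (SPF) in Hip and 56.7%–58.04% against 50.6%–52.7% in PFC, and its part was not tested.

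Entpd1 gave -0.90 in astrocytes (0.0131), Adora1 -0.30 in excitatory neurons (0.0351) and Slc29a1 0.95 in excitatory neurons (0.00672), the 1 pair with the higher value in Hip. GF libraries were deeper than SPF libraries per barcode in PFC and shallower in Hip, so region and depth cannot be told apart here. Groups held 3 mice each, and single values far from the others were not tested. Calls were lost without SPF mouse 30 or 31 or GF mouse 5 for Adk in microglia, any SPF mouse or GF mouse 5 or 6 for Adora1, SPF mouse 30 or 32 for Entpd1, SPF mouse 31 or 32 or GF mouse 5 or 6 for Nt5e in interneurons, SPF mouse 30 or GF mouse 6 for Nt5e in oligodendrocytes, and SPF mouse 30 or 31 or GF mouse 6 for P2ry12 in OPC. Other settings ended some of these calls (adjusted p in parentheses). DESeq2 ended those of Nt5e in interneurons (0.0506), Adora1 (0.0510), P2ry12 in OPC (0.0766) and Adk in microglia (0.0556). Thinned counts ended the same 4 (0.235, 0.0881, 0.0824 and 0.0512). The stricter gate ended Nt5e in interneurons (0.150), Nt5e in oligodendrocytes (0.0692) and Adk in microglia (0.105), and a fit without TMM factors ended Nt5e in interneurons (0.107) and Adora1 (0.724). Without TMM factors the value of Adora1 also turned direction, from -0.30 to 0.059.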

How the results depend on the processing

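Of 81 pairs called over the 8 comparisons, 51 kept the call without each mouse and 30 lost it without at least 1. DESeq2 ended 12 of the 81 calls, no TMM factors 6 and no filter 4. Thinned counts ended 10 of the 79 that still passed the filter, the stricter gate 8 of 78 and a fit of only 2 groups 2 of the 62 to which it applies. P2ry12 in PFC OPC did not pass the filter with thinned counts or the stricter gate, nor did Adk in PFC microglia with the stricter gate or without GF mouse 5. The replicate block, which pairs both regions of a mouse, ended none of the 19 calls it applies to and gave 5 called pairs between regions within GF mice and 17 for the GF against SPF difference between regions. Adora1 in excitatory neurons turned direction in the last test without TMM factors (0.059, adjusted p = 0.724). Leaving out that scaling moved the median of all genes there by 0.36. Its omission moved the median by 0.16 in GF against SPF Hip excitatory neurons and by -0.14 in those of PFC.

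CGF against SPF in Hip gave 1 called pair, 3 with DESeq2, 0 with the stricter gate, 0 with only these 2 groups and 0 to 0 without any one mouse, and in PFC 0 to 0. Without any one mouse the counts were 11 to 13 (Hip) and 15 to 20 (PFC) for GF against SPF, 6 to 12 and 15 to 16 for GF against CGF, 1 to 5 for Hip against PFC within GF mice and 10 to 16 for the difference between regions, with 10 without SPF mouse 30. Levels by cell type moved by less than 1 SD under the alternatives run.

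Depth limits Entpd2 in every type and P2ry13 in PFC microglia, and PFC groups differ in depth.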
